A study of Monopterus albus with 3 samples.

Results

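Single-segment loci nested in introns are loci of the *Monopterus* gonad transcript models whose coding sequence (CDS) lies in 1 uninterrupted stretch, is at least 150 bp long and falls wholly inside 1 intron of another locus. Each Cufflinks gene identifier was taken as 1 locus, for which the transcript of greatest CDS length stood, and an intron is the gap between consecutive coding segments of a locus with at least 2 of them, called the host. By this rule 1223 of the 63334 loci were nested (1.93%), or 8.23% of the 14866 single-segment loci of at least 150 bp. The RNA came from ovary, ovotestis and testis of swamp eel, labelled female, intersex and male, with 1 poly(A) RNA-seq library per gonad, no treatment and no replicates. The deposited annotation gives 1 coverage and 1 FPKM value per transcript for the whole series, so the gonads could not be compared. Every interval below covers counting or the spread between loci only. None of the identifiers carried a gene name (0 were found in the RefSeq gene table of the species), so loci are given by position, 1-based on the authors' scaffolds. No sequence of these scaffolds was used here, so none is shown.

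A gene nested inside an intron of another gene is transcribed within the transcription unit of its host, from either strand. When it is read from the opposite strand, it needs a promoter and a polyadenylation site of its own, and when it has no introns itself it is often a retrocopy, a mobile element or a short unspliced RNA in vertebrate genomes. RNA-seq of whole tissue also catches host transcripts that are not yet spliced, whose introns are then covered by reads. Cufflinks has a setting that drops models inside an intron when they are weak relative to the host, because such reads can look like a transcript.

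The nested loci were short. Their CDS had a median of 225 bp (95% order-statistic interval 216 to 231), with quartiles at 180 and 312 bp and a range from 150 to 5382 bp. For the 13643 single-segment loci of this length outside introns the median was 240 bp (237 to 243), and a CDS of at least 300 bp was found at 27.6% of the nested (Wilson 95% interval 25.1 to 30.1) and 34.5% of the outside loci (33.8 to 35.3). Only 19 nested loci reached 1000 bp. The CDS was a multiple of 3 at all 1223. Most had a single transcript (1183), 40 had 2 or 3, and just 1 of those 40 had another transcript with several coding segments. A coding segment of another locus overlapped 33 nested loci, and in 1 case that locus was the host. At the edge of the rule, 31 loci inside introns had a CDS of 150 bp, with a median coverage of 24.8 and 74.2% on the host's strand, and another 31 of 153 bp had 89.7 and 45.2%. Just outside it, 41 of 147 bp had a median coverage of 74.6 and 41.5% on the host's strand, and 36 of 144 bp had 43.1 and 41.7%.

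The 5 nested loci with the longest CDS lay on 3 scaffolds. The longest, 5382 bp, ran from 207981 to 213362 on scaffold 239, on the plus strand in the last of 6 introns of a plus-strand host, an intron of 14407 bp. Its coverage was 9.39 (Cufflinks interval 8.26 to 10.5), against 3.51 (1.98 to 5.04) for the host, or 2.07-fold after adding 2 to both coverages. Cufflinks gives its interval for FPKM, and here and below it was scaled to the coverage of the same transcript. The same intron held a CDS of 2463 bp from 215284 to 217746, with a coverage of 6.08, also on the plus strand. On scaffold 24, an intron of 11291 bp held ORFs of 4218 bp (144936 to 149153) and 4209 bp (149337 to 153545), both on the minus strand of their host. The first had a coverage of 54.7 against 65.0 for the host, whose interval of 59.7 to 70.3 did not overlap that of the nested locus (51.7 to 57.8). The second was lower, at 22.7 (20.7 to 24.6). Each of these 4 ORFs was longer than the whole CDS of its host, which was 786 bp on scaffold 24 and 1365 bp on scaffold 239. The fifth, 2145 bp from 1263853 to 1265997 on scaffold 250, lay on the strand opposite to its host, in a first intron of 34914 bp, with a coverage of 19.8 against 6.09.

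In all, 850 hosts (5.47% of the 15543 spliced loci, that is, loci with several coding segments) carried the nested loci in 978 introns on 348 scaffolds. A single nested locus was found in 639 hosts, 2 in 125 and 3 or more in 86. By intron, 817 held 1, 120 held 2 and 41 held 3 or more. Hosts were long genes, as the rule favours, with a median span of 26476 bp against 5053 bp for all spliced loci, and they had a median of 10 coding segments against 6. Their median coverage was 29.7 (25.5 to 34.4), against 79.0 (74.999 to 83.1) for all spliced loci. Few nested loci had an FPKM under 0.15 of the host's (1.23%, described below). Weak models inside well covered loci may thus be absent, and their part in this difference was not tested. A host CDS under 300 bp was found at 62. The introns with the most nested loci belonged to hosts with only 2 coding segments. One on scaffold 65 (735118 to 1055470, 320353 bp) held 13, of which 3 lay on the host's strand. Coverages in it went from 2.25 to 1106, around a host at 3.89. One on scaffold 96 (1103261 to 1582720, 479460 bp) held 10, with 2 on the host's strand and coverages from 6.999 to 39.0, all below the host at 71.2. An intron of 215920 bp on scaffold 39 held 9, of which 6 were on the host's strand. The intron on scaffold 96 was also the longest host intron, so all 10 of its loci tied for that place. Each of these long introns joins 2 distant coding segments, and whether the join is right was not tested.

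Nested loci sat in long introns, and their number per Mb of intron was lowest in introns under 2 kb. The host intron had a median of 10338 bp (9098 to 11301), with quartiles at 4070 and 25592 bp, while the median of all 117588 introns was 361 bp. An intron has to be longer than what it holds and a long one offers more room, so the medians are not directly comparable. The intron that held the middle base of all 158.6 Mb of introns was 5275 bp long. Counted per Mb of intron, nested loci numbered 0.792 in introns under 1 kb, 4.402 at 1 to 2 kb, 8.64 at 2 to 5 kb and 10.5 at 5 to 10 kb. Above that the density no longer rose steadily, with 11.6 at 10 to 20 kb, 8.99 at 20 to 50 kb and 11.8 at 50 kb and more. Introns under 1 kb made up 17.5% of all intronic bases and held 22 nested loci (1.80%). These densities count all intronic bases, also where a locus of 150 bp cannot fit. Of the 117588 introns, 85348 were at least 150 bp long. The low density in short introns is therefore partly set by the rule. With only the 817 nested loci that were alone in their intron, an alternative chosen after the data were seen, the median host intron was 6634 bp (6039 to 7198).

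**Figure D1:**
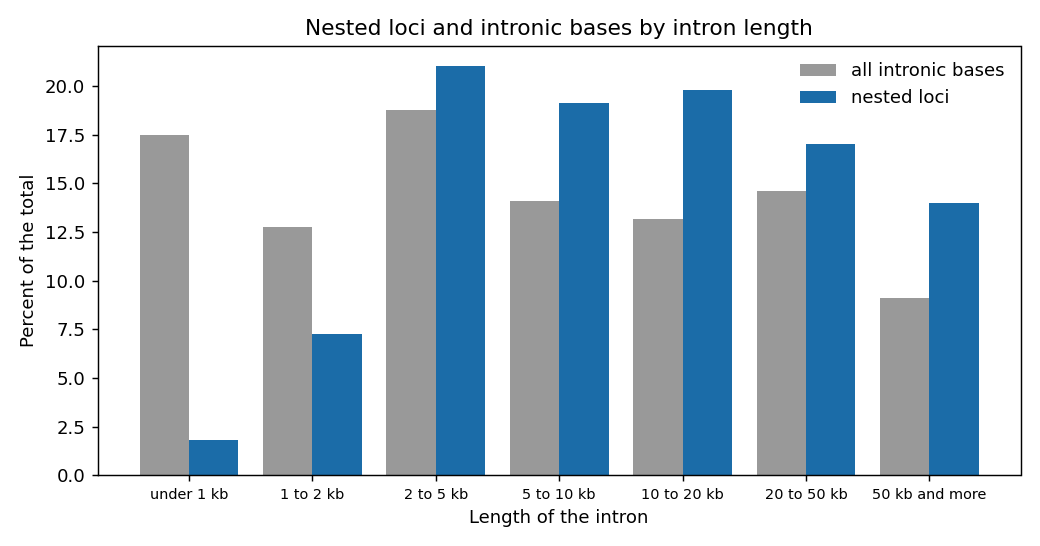
Percent of all intronic bases (grey bars) and of the 1223 nested loci (blue bars) by length of the intron. Introns under 1 kb hold 17.5% of the bases but 1.80% of the loci, and introns of 5 kb and more hold a larger share of the loci than of the bases in each class.

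At the short end, the tightest intron was 202 bp long, on scaffold 141 from 1064783 to 1064984. It held an ORF of 153 bp on the host's strand, whose 3' end was 2 bp from the host's coding segment. The coverage of this ORF, 191, rested on 12 fragments. An intron of 302 bp on scaffold 1 left 1 bp between a nested ORF of 198 bp and the host's coding segment, on the opposite strand. The third, of 508 bp on scaffold 3, held an ORF of 162 bp on the opposite strand with a coverage of 22.6 against 98.9. Over all nested loci the nearer coding segment of the host was 2182 bp away at the median (1941 to 2416), at most 237201 bp, and 174 (14.2%) lay within 500 bp. Scaled to the room left in the intron, from 0 at its 5' end, the median position was 0.51 (0.48 to 0.53). The outermost 10% of that room held 7.28% of the loci at the 5' end (5.95 to 8.87) and 6.38% at the 3' end (5.14 to 7.89), both below 10%.

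First introns held 398 nested loci (32.5%, interval 29.98 to 35.2), where first introns were 13.2% of all introns and 27.5% of all intronic bases. Order was counted over introns between coding segments only, since the models were cut back to an ORF. Split further, the only intron of a host with 2 coding segments held 144 nested loci, or 15.4 per Mb (exact Poisson 95% interval 12.99 to 18.1). Single introns held 13, 10 and 9 of these 144. The Poisson intervals treat loci as independent and may be too narrow. The first of several introns held 7.40 per Mb (6.51 to 8.36), internal introns 6.81 (6.30 to 7.34) and last introns 9.40 (7.98 to 11.0). The intervals of first and internal introns overlapped, and the density was highest in hosts with a single intron, whose median CDS was 297 bp per nested locus. Without hosts of a CDS under 300 bp the share in first introns was 27.9%, and with host introns up to 50 kb it was 27.5%. Among the 1079 nested loci whose host had several introns, 58.7% (55.7 to 61.6) were in the longest of them, which made up 45.8% of the intronic bases of those hosts. The first share counts nested loci, and the second counts each host once, weighted by its intronic bases. The 2 shares are therefore not directly comparable.

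**Figure D2:**
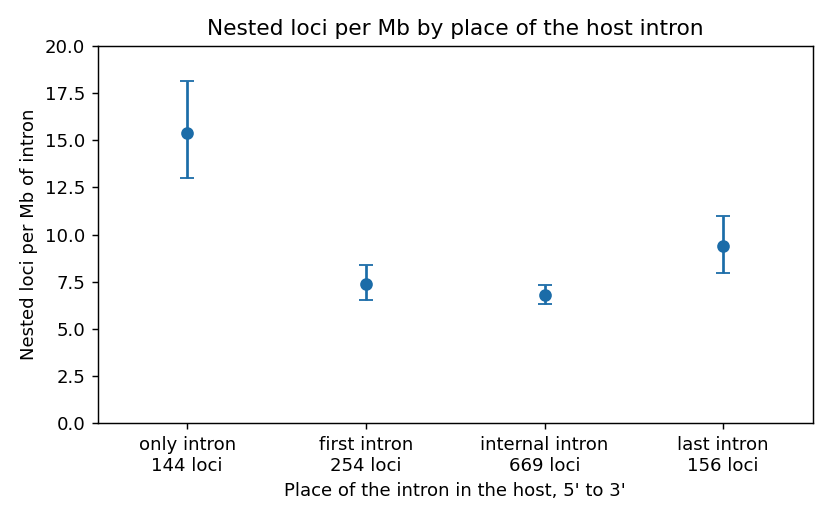
Nested loci per Mb of intron by the place of the intron among those between coding segments of its host. Bars are exact Poisson 95% intervals that treat loci as independent, and the number of nested loci stands below each class. Only introns stand at 15.4 per Mb, last introns at 9.40, and first and internal introns at 7.40 and 6.81 with intervals that overlap.

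Nested loci shared the host's strand less often than outside loci shared that of the nearest spliced locus, while an excess on the opposite strand as such was within the counting error in most alternatives. Of the 1223, 577 shared the host's strand (47.2%, 44.4 to 49.98) and 646 did not. The interval ended just below 50%, and it included 50% in 8 of the 11 alternatives run. Most of these 8 rested on fewer loci, and the share was 47.1% to 47.8% in all 11. With a CDS of at least 90 bp, 2195 nested loci gave 47.6% (45.5 to 49.7). Over all 12339 single-segment loci of at least 150 bp with a host or a nearest spliced locus, the share on its strand was 52.3%. Outside introns it was 52.9% (51.9 to 53.8), and nested minus outside was -5.67 percentage points (Newcombe 95% interval -8.61 to -2.72). The share outside introns varied with distance. Where these loci overlapped the span of the spliced locus, 71.5% shared its strand, and at gaps up to 5 kb 53.7% did. At 5 kb and more it was 51.0% (49.9 to 52.1), and nested minus these was -3.80 points (-6.80 to -0.79). All these intervals treat loci as independent. The 1223 nested loci shared 850 hosts, and close neighbors often shared a strand, so the intervals may be too narrow. By CDS length the nested share was 46.7% at 150 to 199 bp and 51.4% (40.2 to 62.4) at 600 bp and more, and nested single-segment loci under 150 bp had 48.3% (46.5 to 50.2). In last introns 57.1% of nested loci shared the host's strand, against 45.3% in internal and 43.1% in only introns. The cDNA protocol in the labels names no step that keeps the strand. The models were cut back to their ORF. Whether the strand of a single-segment locus came from its ORF or from a splice junction outside it cannot be told. In other measures the loci of both strands had overlapping intervals. Their median CDS was 225 bp on the host's strand and 222 bp against it, the median host intron 10058 and 10530 bp, and the median coverage 24.5 (20.2 to 30.5) and 24.9 (21.1 to 28.8).

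Nested loci that were neighbors in 1 intron shared a strand and a reading frame when they were close. There were 245 such pairs, with a median gap of 3769 bp. At gaps under 1 kb, overlaps included, 54 of 66 pairs (81.8%, 70.9 to 89.3) were on the same strand, at 1 to 5 kb 42 of 70 (60.0%) and at 5 kb and more 53 of 109 (48.6%, 39.4 to 57.9). Of the 54, 5 were overlaps in which both ORFs had the same coordinates or the same end, so they are not separate neighbors. Outside introns 158 of 989 close pairs overlapped. Overlaps are kept in the strand shares and strand differences. The difference between the closest and the widest class was 33.2 percentage points (18.8 to 45.0). Close pairs of single-segment loci outside introns also shared a strand in 72.0% of cases (69.1 to 74.7), and the 9.83 points between these shares had an interval that included 0 (-1.47 to 17.8). The share in the same reading frame differed beyond its interval. Of the 49 close same-strand pairs in 1 intron that did not overlap, 32 (65.3%, 51.3 to 77.1) were in the same frame, that is, their first bases were a multiple of 3 apart. Outside introns this was 42.7% (38.8 to 46.7), a difference of 22.6 points (8.04 to 35.0), and at gaps of 5 kb and more it was 30.2% in introns and 33.3% outside. The 49 pairs came from 42 scaffolds, and 28 of them lay on the host's strand. Their coverages were not equal, with a median of 2.12-fold between the members of a pair.

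**Figure D3:**
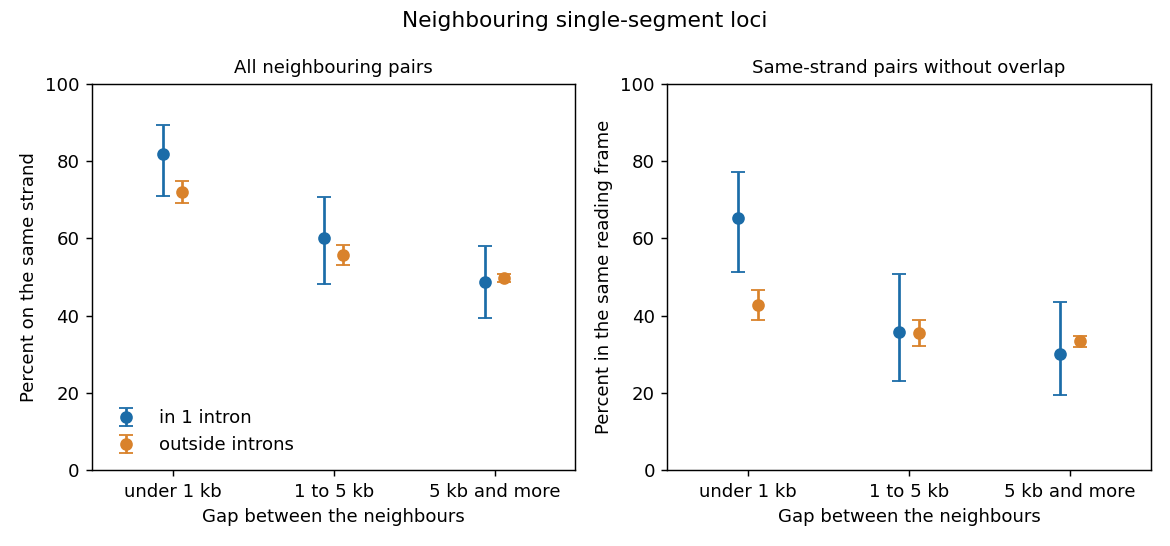
Percent of neighboring single-segment loci on the same strand (left) and, for same-strand pairs without overlap, in the same reading frame (right), by the gap between them, with Wilson 95% intervals as bars. Pairs in 1 intron are blue and pairs outside introns orange, and of the 6 comparisons the intervals are apart only for the frame at gaps under 1 kb, at 65.3% against 42.7%.

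Several of the largest nested ORFs formed such pairs. The ORFs of 4218 and 4209 bp on scaffold 24 were 183 bp apart, on the same strand and in the same frame. On scaffold 239, ORFs of 546 and 2463 bp were 318 bp apart in the same frame, with nearly equal coverages of 6.17 and 6.08. On scaffold 163, 60 bp separated ORFs of 1764 and 498 bp (814509 to 816272 and 816333 to 816830), again in the same frame, with coverages of 1.956 and 5.88. Other long pairs did not share a frame. On scaffold 39, ORFs of 1023 and 540 bp, 634 bp apart, were on the same strand but in different frames, and on scaffold 74, ORFs of 783 and 639 bp, 958 bp apart, were on opposite strands. These pairs were picked after their values were seen.

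Many nested models rested on few reads. The half-width of the interval that Cufflinks gives around an FPKM, relative to the FPKM, was taken as 2 divided by the square root of a number of fragments. The number read back this way was whole, within 0.01, at 94.7% of the 1026 nested loci where it could be read, and it is taken here as the depth behind a locus. It had a median of 26 fragments (24 to 27.7), quartiles at 15 and 52, and a highest value of 4927, and 412 loci (40.2%) had at most 20 fragments. Outside introns the median was 25 fragments (25 to 26). The interval of a nested locus reached 37.8% of its value to either side at the median, and that of its host 13.8%.

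Coverage had a median of 24.7 (21.8 to 27.8) at nested loci, with quartiles at 10.4 and 72.0, and ranged from 1.81 to 47353. It did not follow the number of fragments closely (Spearman rho 0.35 across 1026 loci, which share their libraries). A coverage of at least 1000 was reached by 84 nested loci, all with a CDS of at most 222 bp, and their median of 23 fragments (17 to 28) was no higher than the 26 (24 to 28) of the other nested loci. Coverage divided by fragments had a median of 1.48 at a CDS of 150 to 199 bp, and reached 497. At 200 to 299 bp the median was 0.914, at 300 to 599 bp 0.386 and at 600 bp and more 0.146. One fragment cannot cover a base 497 times, so coverage at short ORFs is not read here as a depth of reads. The highest coverage was 47353, at an ORF of 165 bp on scaffold 267 (339543 to 339707) with 212 fragments, in a host at 33.3. An ORF of 168 bp on scaffold 59 (1615829 to 1615996) followed at 38004, in an intron of 526 bp of a host at 454. The third, of 165 bp on scaffold 121 (1996523 to 1996687), had a coverage of 26655 from 147 fragments, in intron 25 of 27 of a host at 146. An ORF of 153 bp on scaffold 69 (2149904 to 2150056) reached 24077 from 65 fragments, and one of 165 bp on scaffold 202 (783745 to 783909) reached 18393, also from 65.

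**Figure D4:**
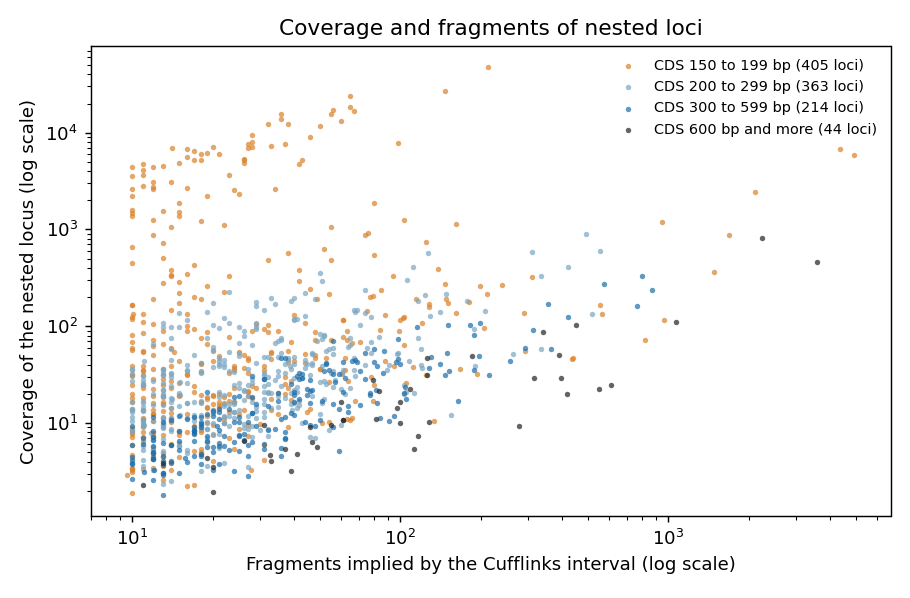
Coverage of nested loci against the fragments implied by the Cufflinks interval, both on log scales, 1 point per locus, colored by CDS length, for the 1026 loci with a fragment number. Of the 84 nested loci with a coverage of at least 1000, 83 have a CDS of 150 to 199 bp, and the 77 of the 84 with a fragment number have a median of 23 fragments.

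Relative to the host, nested loci were spread widely on both sides. On the scale of log2(coverage + 2), the median difference to the host was -0.19 (-0.32 to -0.01), with quartiles at -1.60 and 1.44. The interval ended just below 0, and it included 0 in some of the alternatives run. On this scale, 382 nested loci (31.2%, 28.7 to 33.9) were at least 2-fold above the host, 429 (35.1%, 32.5 to 37.8) at least 2-fold below and 412 within 2-fold. Over all single-segment loci of at least 150 bp, set against the host or the nearest spliced locus, 23.7% were 2-fold above and 46.8% 2-fold below. These shares varied with the coverage of the spliced locus, which was at least 100 for 225 nested and 4189 outside loci. At 10 to 30, 30.5% of nested loci were above and 27.0% below, against 28.4% and 24.8% outside introns. At 30 to 100 it was 16.6% and 55.7% against 17.0% and 57.3%. Under 10 it was 59.3% and 1.32% against 50.3% and 2.56%, and at 100 and more 16% and 64% against 5.92% and 83.8%. Cufflinks intervals, scaled from FPKM to coverage, were available for both models at 932 nested loci. Of these, 323 (34.7%) lay wholly above the host's and 360 (38.6%) wholly below, where the shares over all such loci were 27.3% and 48.3%. The unscaled FPKM intervals were not compared. The median difference varied with CDS length. At 150 to 199 bp the median difference was 0.58 (0.22 to 0.84), at 200 to 299 bp it was -0.34 at 300 to 599 bp -0.70 (-1.01 to -0.56) and at 600 bp and more -0.64 (-1.18 to 0.11). It also turned with the unit, since FPKM in place of coverage gave a median of 0.23 (0.07 to 0.47). The ratio sets 1 transcript of the nested locus against 1 of the host, and 1183 nested loci had only 1. Coverage summed over the transcripts of each locus moved the median to -0.87 (-1.02 to -0.72), with 24.6% 2-fold above and 47.3% 2-fold below. Summed coverage was not compared for outside loci. Loci on the host's strand (-0.09, -0.29 to 0.11) and against it (-0.24, -0.42 to -0.03) had intervals that overlapped.

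The ratio had a sharp lower edge. Only 15 nested loci (1.23%, 0.745 to 2.01) had an FPKM under 0.15 of the host's, 5 of them between 0.10 and 0.15, while 88 lay between 0.15 and 0.2. Among single-segment loci outside introns, 27.7% were under 0.15 of the nearest spliced locus and 4.19% between 0.15 and 0.2. The edge was also seen for nested single-segment loci under 150 bp, with 3.15% under 0.15, and for the 156 spliced loci that were themselves nested, with 3.21%. The identifiers fall into 171 numbered blocks, and each scaffold belongs to 1 block, so a nested locus and its host always shared one. The sources used here do not give the Cufflinks settings, whose part in the edge was not tested.

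The comparison of nested and outside loci by coverage changed when loci under the edge were left out. At hosts with a coverage of at least 100, the 225 nested loci had a median coverage of 69.6 (52.6 to 89.7), against 23.2 (20.1 to 28.7) at hosts of 30 to 100 and 17.5 (15.3 to 19.9) at hosts under 10. Outside introns the medians were 19.1 (18.2 to 20.3), 19.0 and 13.03 for the same classes of the nearest spliced locus. With only outside loci at an FPKM ratio of at least 0.15, the median next to spliced loci of at least 100 was 91.1 (83.7 to 97.2), and their median of 36 fragments (32 to 39) equalled that of the nested loci (36, 29 to 44). Nested loci above the edge had a median coverage of 76.8 (55.1 to 96.2) at such hosts, an interval that overlaps that of the outside loci. The rank correlation with the coverage of the spliced locus was 0.32 over all 1223 nested loci and 0.097 over the 11116 outside loci. At an FPKM ratio of at least 0.15 it was 0.32 for nested and 0.45 for outside loci. It is a description across loci that share libraries and scaffolds. A lower edge that rises with the spliced locus raises such a correlation, and the medians beside well covered loci, by construction, so neither is read as a difference between the sets. At a ratio of at least 0.15, 31.6% of both sets were 2-fold above the spliced locus, while 34.3% of the nested (31.6 to 37.0) and 28.2% of the outside loci (27.2 to 29.2) were 2-fold below it. The strand difference between nested and all outside loci above the edge was -6.45 percentage points (-9.46 to -3.43). Its interval again treats loci as independent. These outside loci include those that overlap or lie near a spliced locus, and gaps of 5 kb and more were not set apart here.

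**Figure D5:**
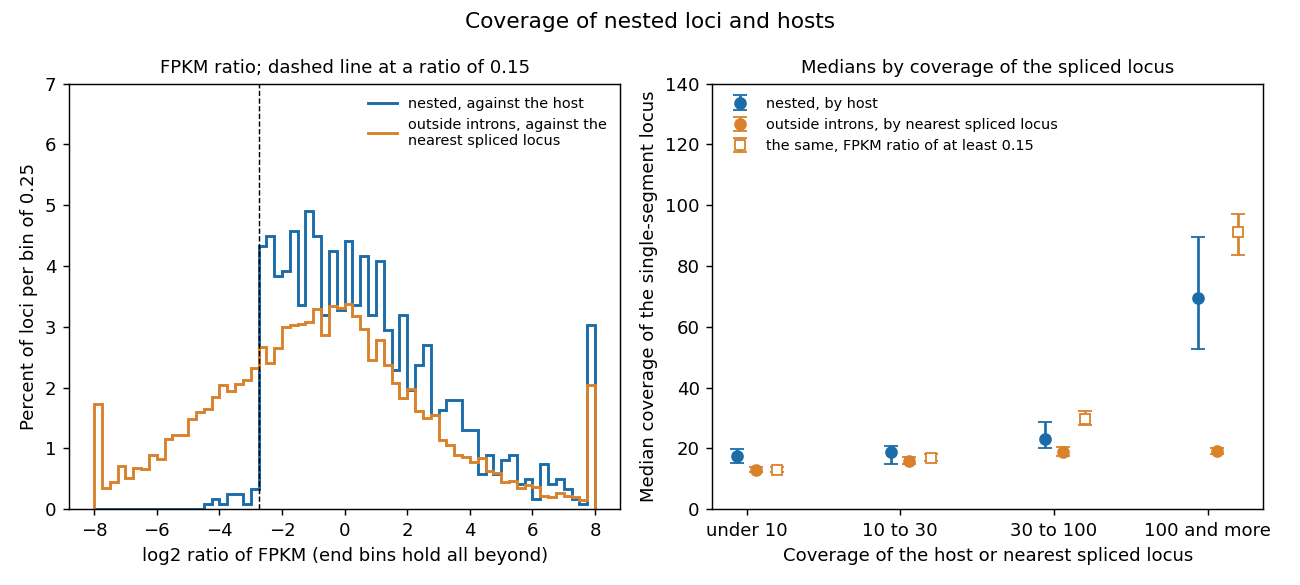
Left, log2 ratio of the FPKM of a nested locus to its host (blue) and of a single-segment locus outside introns to the nearest spliced locus (orange), in percent of loci per bin. Right, median coverage by coverage of the spliced locus with 95% order-statistic intervals; nested loci drop off at a ratio of 0.15, and at 100 and more the outside loci move from 19.1 to 91.1 when those under 0.15 are left out.

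The extremes of the ratio were taken among pairs in which both coverages were at least 5. The largest was that of the 153-bp ORF on scaffold 69, at 24077 against 9.08 for its host. An ORF of 162 bp on scaffold 60 (2023927 to 2024088) had 15471 from 55 fragments against 8.13, and the 165-bp ORF on scaffold 202 had 18393 against 10.6. All 3 rested on at most 65 fragments, and their coverages are not read as depths of reads. The smallest lay on scaffold 24 from 267036 to 267230, with a coverage of 23.6 against 487 for its host (441 to 533), 6 bp from the host's coding segment and on the opposite strand. On scaffold 18 an ORF of 156 bp (7280610 to 7280765) had 17.9 against 249, also on the opposite strand. On scaffold 372 an ORF of 165 bp (405925 to 406089) had 89.996 against 1094, on the host's strand in an intron of 394697 bp that held 6 nested loci.

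Nested loci were fewer per Mb of intron than single-segment loci per Mb outside introns. They numbered 7.75 per Mb of intron with overlapping introns counted once, against 23.3 per Mb for the 11116 loci outside introns on the scaffolds that carry spliced loci, up to the last annotated base. With the outside loci at an FPKM ratio of at least 0.15 only, that density was 16.8 per Mb. The intronic bases include introns too short to hold a locus of 150 bp. The outside loci include 649 that overlapped the span of a spliced locus, while the bases outside leave out introns and coding segments. These densities are therefore not directly comparable. What else differs between introns and the space outside them was not tested.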

How the data were processed

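Poly(A) RNA of ovary, ovotestis and testis was sequenced on 1 library each. The submitters' processing notes name Bowtie 0.12.7, Cufflinks 1.1.0 and TopHat 1.3.3 (the study's methods give a later Cufflinks version). The authors mapped the reads, assembled transcripts and cut each model back to an ORF found by a hidden Markov model. The deposited annotation holds coordinates, a coverage, an FPKM with its interval and an isoform fraction per transcript, with 0 values per library. Members and lists were chosen with earlier results of these data known. Where several introns held a locus, the shortest was taken, and coverage ratios used a pseudocount of 2. Fragment numbers were read from intervals at isoform fraction 1 with a lower bound above 0. Intervals of coverage are the FPKM intervals multiplied by coverage over FPKM. Outside loci were paired with the nearest spliced locus by gap. Shares carry Wilson, medians order-statistic and differences Newcombe intervals at 95%. No test between groups was possible, and loci are not replicates. Search and intervals were tested on simulated data. Loci described by position were the 5 longest and 5 most covered, the 3 largest and smallest ratios, loci in the longest (10 tied in 1 intron) and the 3 shortest host introns, and the 3 fullest introns and hosts. The analyses of neighbors, fragments, intervals and the FPKM edge were added after the data were seen. Python 3.11.15, numpy 2.4.6, scipy 1.17.1 and matplotlib 3.10.9 were used.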

Additional observations from a re-analysis of the deposited data

How the results depend on the processing

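Of the alternatives to the 7 main values, 57 of the planned ones stayed within the interval of the reported value (for the number of loci, within 1.5 times), among them each that left out loci overlapping another model, loci with 2 hosts or scaffolds under 1 Mb, or took the last of equal transcripts or the longest host intron. The share on the host's strand was 47.1% to 47.8% in the 11 alternatives run, but in 8 of them its interval included 50%. The interval of the median log2 difference included 0 with the longest host intron, with the last of equal transcripts and with scaffolds of at least 1 Mb (-0.34 to 0.01). It also did with hosts of a CDS of at least 300 bp (-0.30 to 0.006). It stayed below 0 without loci overlapping another model, without loci with 2 hosts and with host introns up to 50 kb. With a CDS of at least 300 bp there were 337 nested loci in a median host intron of 11835 bp, the median log2 difference was -0.69, and 17.8% were 2-fold above and 43.6% 2-fold below the host. With a CDS of at least 90 bp there were 2195, the median turned to 0.45, and the shares were 43.7% and 28.6%. Hosts with a CDS of at least 300 bp gave 27.9% in first introns, and introns up to 50 kb gave 27.5% and a median of 8080 bp. Coverage summed over transcripts gave -0.87, 24.6% above and 47.3% below, and FPKM turned the median to 0.23, with 38.8% above and 30.3% below. Of alternatives chosen after seeing the data, introns with a single nested locus gave 6634 bp, a coverage of at most 2 per fragment gave -0.60, 21.6% and 41.8%, and intervals that do not overlap gave 34.7% and 38.6%. Close pairs in introns with at most 2 nested loci shared a strand in 80.0% and a frame in 67.6%, and at gaps under 2 kb in 77.1% and 55.1%. The median coverage at hosts of at least 100 was 35.6 at a CDS of at least 300 bp. No paired analysis was possible because each gonad has 1 library and the values are not per library. With 26 fragments at the median, single ratios are imprecise.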
